A study of Mus musculus with 10 samples.

Results

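RAD23B binding sites were examined as the regions listed for 2 RAD23B chromatin immunoprecipitation libraries of wild-type mouse embryonic stem cells, with the reads of an IgG library counted in the same regions. All regions of both lists were taken, 59768 for replicate 1 and 42364 for replicate 2. These 102132 regions are all but 828 of the 102960 listed in the series. A replicate 1 region was called shared when it overlapped a replicate 2 region by at least 1 bp, which held for 38822.

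The cells were of the D3 line, an established mouse embryonic stem cell line, labelled wild type, with no treatment named. Chromatin was precipitated with an antibody to RAD23B (2 libraries) or with guinea pig IgG as the control (2 libraries), and the material of several precipitations was pooled before each library was made. The series holds 10 samples in all, the others being Xpc-null ChIP and RNA libraries. Gene positions are the coordinates listed with the expression comparison of Rad23b-null and wild-type cells. The expression values used below come from a wild-type RNA library of JM8.N4 cells, another embryonic stem cell line. Occupancy and expression were thus measured in different lines. In that RNA library the stem cell markers Pou5f1, Nanog, Esrrb and Klf4 had 1603, 512, 162 and 78.7 RPKM (reads per kb of transcript and M reads), while the fibroblast collagens Col1a1, Col1a2 and Col3a1 had 0.596, 0.206 and 0.0709 and Vim, which encodes vimentin, 189.

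RAD23B is one of the mammalian homologues of yeast Rad23. It binds XPC and centrin 2 in the complex that finds distorted DNA at the start of global nucleotide excision repair, and it carries a ubiquitin-like domain through which it contacts the proteasome. In embryonic stem cells the same XPC complex is known as a coactivator that works with OCT4 (encoded by Pou5f1) and SOX2, whose joint binding sites pair a POU motif with a SOX motif. An IgG library shows how many reads a stretch of chromatin gives with an antibody that has no specific target, and this is usually higher at open, easily sheared sites such as active promoters.

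Start windows are shown for 5 genes whose starts carried a listed region. Nanog and Pou5f1 were taken as known stem cell targets. Phc1, Ap1s1 and Uba2 were among the 5 protein-coding starts highest by fold. Each window runs from 250 bases before to 50 bases after a RefSeq transcript start (GRCm38.p6), in the direction of the gene. Capitals mark matches, on either strand, to ATGCAAA (POU), ACAATG (SOX), GGGCGG (the GC box), CCAAT (a box named after its letters), TATAAA (the TATA box) or CCGGAAG (ETS).
Nanog (chr6:122707239-122707538, + strand): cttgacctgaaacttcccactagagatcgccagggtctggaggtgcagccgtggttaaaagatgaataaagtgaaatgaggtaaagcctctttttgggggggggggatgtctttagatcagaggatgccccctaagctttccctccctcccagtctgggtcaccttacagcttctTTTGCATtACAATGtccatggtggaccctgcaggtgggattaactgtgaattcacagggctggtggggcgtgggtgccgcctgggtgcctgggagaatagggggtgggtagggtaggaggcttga
Pou5f1 (chr17:35505782-35506081, + strand): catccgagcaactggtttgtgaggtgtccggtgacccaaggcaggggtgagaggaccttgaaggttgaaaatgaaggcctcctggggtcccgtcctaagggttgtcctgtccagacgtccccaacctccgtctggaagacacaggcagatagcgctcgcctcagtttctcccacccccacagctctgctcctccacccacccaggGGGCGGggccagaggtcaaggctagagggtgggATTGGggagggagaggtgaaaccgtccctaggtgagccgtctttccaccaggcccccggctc
Phc1 (chr6:122340178-122340477, - strand): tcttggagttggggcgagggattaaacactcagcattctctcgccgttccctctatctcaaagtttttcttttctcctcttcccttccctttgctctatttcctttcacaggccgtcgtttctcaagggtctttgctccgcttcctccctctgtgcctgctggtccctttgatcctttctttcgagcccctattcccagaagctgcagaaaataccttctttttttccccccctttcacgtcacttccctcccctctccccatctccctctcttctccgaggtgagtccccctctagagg
Ap1s1 (chr5:137046059-137046358, - strand): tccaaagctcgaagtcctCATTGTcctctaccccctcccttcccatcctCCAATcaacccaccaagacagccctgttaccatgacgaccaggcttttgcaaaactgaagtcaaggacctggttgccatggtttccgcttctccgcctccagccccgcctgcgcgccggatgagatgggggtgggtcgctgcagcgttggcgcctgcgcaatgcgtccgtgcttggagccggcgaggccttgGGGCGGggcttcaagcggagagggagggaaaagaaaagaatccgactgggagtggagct
Uba2 (chr7:34168480-34168779, - strand): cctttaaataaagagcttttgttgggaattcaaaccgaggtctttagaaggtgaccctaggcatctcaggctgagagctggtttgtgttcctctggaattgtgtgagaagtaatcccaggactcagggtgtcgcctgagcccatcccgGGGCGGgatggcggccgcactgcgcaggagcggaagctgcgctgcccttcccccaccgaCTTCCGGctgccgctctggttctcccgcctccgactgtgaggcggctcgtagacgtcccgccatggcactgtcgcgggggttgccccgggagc
The Nanog window holds a POU match (on the opposite strand) and, after 1 base, a SOX match. Over the 27025 genes with such a window, 4.59% held a POU match and 12.8% a SOX match. The Pou5f1 window holds a GC box and a CCAAT match, found in 35.9% and 37.9% of all windows, and the Phc1 window holds none of the 6 motifs. The Ap1s1 window holds a SOX match, a GC box and a CCAAT match, and the Uba2 window a GC box and an ETS match (9.12% of all windows). The TATA box, in 14.2% of all windows, is in none of the 5. The windows are in another genome build than the region lists (mm9), so they were not placed within the regions. Windows were at hand for 4621 of the 6639 protein-coding genes with a region at the start (69.6%), under the 80% needed, so a comparison of base composition between genes with and without a region would be void and is not given.

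The RAD23B libraries held 109.3 and 62.53 M reads (M for 1000000), as the deposited maximum over its RPM gives them. The authors' fold followed (RAD23B reads + 1) over (IgG reads + 1) divided by 1.048 in replicate 1 and 0.9996 in replicate 2, which implies IgG libraries of 104.3 and 62.55 M reads if that divisor is the ratio of library sizes. Reads in listed regions were 10.2% of the RAD23B library and 5.22% of the IgG library in replicate 1, and 12.3% and 7.95% in replicate 2. In replicate 2 the 5 regions with the most IgG reads, a set chosen after their values were seen, held 39.8% of the RAD23B reads of all its regions. One of these, chr9:3000001-3038575, had 1264590 RAD23B and 1126610 IgG reads. Another, chr2:98506223-98507741, held 1086820 and 934349. None of the 5 overlapped a replicate 1 region, and their folds lay between 1.09 and 1.24. Without the top 5 of each list, the regions held 10.1% of the RAD23B and 5.12% of the IgG reads in replicate 1 and 7.42% and 3.67% in replicate 2. The headings of the replicate 2 list name the replicate 1 libraries, although its values differ from those of replicate 1. Its read columns were kept as headed: all 42364 regions had more reads in the RAD23B column than in the IgG column, and the peak of extended reads exceeded the RAD23B reads in 181 regions and the IgG reads in 35268, as it did in 92 and 46080 regions of replicate 1. With 2 RAD23B and 2 IgG libraries, an exact two-sided permutation test could not go below p = 0.333, and each library was counted only in the regions of its own list, so no test was made. The labels do not tell whether the 2 replicates were separate cultures, and a sample field inside the replicate 2 list calls it a repeat sequence. Whether it is a second sequencing of the same material is not known, so the spread between the lists may be technical. All values are therefore given for both replicates side by side, and intervals cover counting error only.

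In both replicates, regions of high and low fold differed mainly in their IgG reads. The medians over regions were 133 RAD23B and 66 IgG reads in replicate 1 and 79 and 36 in replicate 2. When regions were ordered by the authors' fold, the RAD23B level differed little below the strongest decile, and the IgG level was lower with each decile. In the strongest decile of replicate 1 the median was 316 RAD23B reads per kb of region, against 257 in its weakest decile, while IgG had 77.3 and 181 reads per kb. In replicate 2 the strongest decile had 183 RAD23B reads per kb, against 168 in the weakest, and IgG had 40.7 and 116. The Spearman correlation of fold across regions was -0.766 with IgG reads per kb and 0.193 with RAD23B reads per kb in replicate 1 (59768 regions), and -0.861 and 0.108 in replicate 2 (42364 regions). These are descriptions: the reads per kb are parts of the fold, the regions share a library, and a region had to reach a peak of 61 extended RAD23B reads in replicate 1 and 40 in replicate 2 to be listed, which holds the RAD23B level above a floor.

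**Figure D1:**
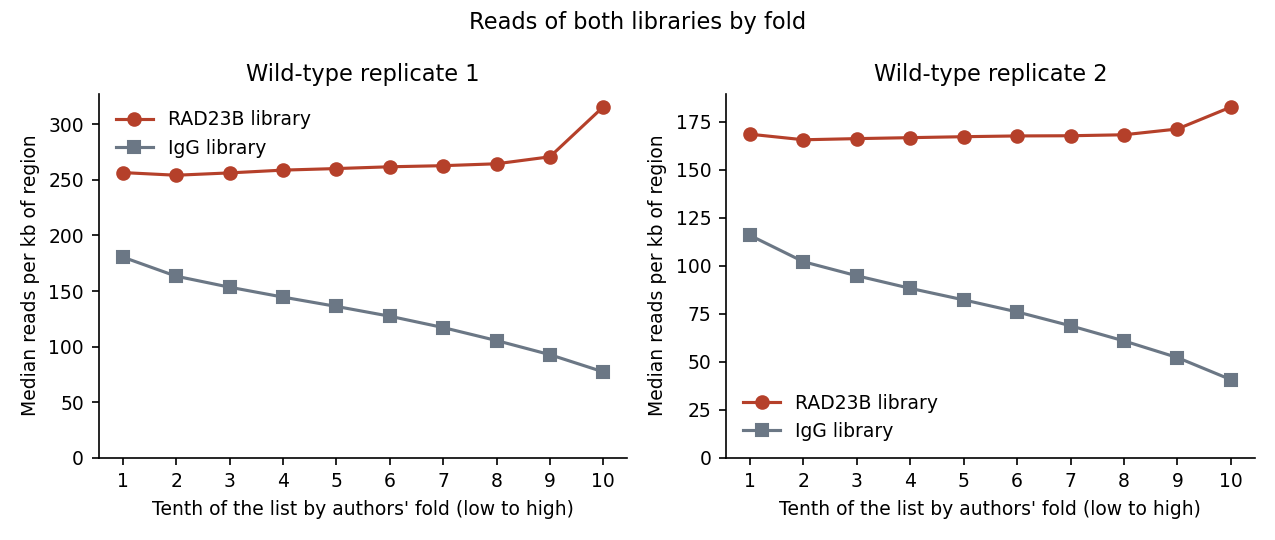
Median reads per kb of region in the RAD23B (circles) and IgG (squares) libraries, for regions of each wild-type list split into deciles by the authors' fold. RAD23B reads per kb lie between 254 and 316 in replicate 1 and between 166 and 183 in replicate 2, while IgG reads per kb go down to 77.3 and 40.7 in the strongest decile.

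Most regions were modest in fold and narrow. The authors' fold was at least 4 in 2226 of the replicate 1 regions (3.72%) and in 2980 of the replicate 2 regions (7.03%), and at least 8 in 27 and 89. The interquartile range of folds ran between 1.58 and 2.37 in replicate 1 and between 1.74 and 2.70 in replicate 2. The interquartile range of widths was 397 to 696 bp in replicate 1 and 374 to 617 bp in replicate 2, from a smallest listed width of 250 bp in both. Regions of 1 kb or more were 9.28% of replicate 1 and held 21.2% of its covered length, against 5.09% and 13.5% in replicate 2. Wide regions were denser in RAD23B reads (Spearman correlation of width with RAD23B reads per kb 0.707 and 0.616) but hardly stronger by fold (0.0828 and -0.0169). Among listed regions width thus went with the density of RAD23B reads and hardly with their ratio to IgG. Regions were called in the RAD23B library, and the part of the calling in this link was not tested.

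The 2 shared regions nearest to the shared regions' median fold and width in both replicates show a typical shared site. One, at chr9:122481200-122481797, over the start of the listed gene 9530059O14Rik, had 188 RAD23B and 92 IgG reads in replicate 1 and 78 and 38 in replicate 2. Its folds were 1.94 (95% exact counting interval 1.51 to 2.53) and 2.03 (1.38 to 3.11). The other, at chr14:25319676-25320263, 9.77 kb from the start of the ribosomal protein gene Rps24, had 163 RAD23B and 80 IgG reads in replicate 1 and 72 and 33 in replicate 2. Its folds were 1.93 (1.48 to 2.57) and 2.15 (1.43 to 3.40). Both intervals of both regions lie above 1 and overlap between the replicates. Neither point is evidence of its own. Regions were listed for RAD23B above IgG, and these 2 were picked for being near the median fold in both replicates.

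The widest regions and those densest in RAD23B reads were of another kind, with many reads in both libraries. The widest shared region, chr8:126060963-126124343, had 35976 RAD23B and 30126 IgG reads in replicate 1 and 13010 and 10156 in replicate 2, with folds of 1.14 and 1.28. It lies in a listed locus that merges 156 genes. Of the 5 shared regions ranked highest by width, 2 lie on chromosome 6 and 3 on chromosome 8, with folds of at most 1.18 in replicate 1 and 1.3 in replicate 2. The 5 shared regions densest in RAD23B reads were also the 5 densest in IgG reads. The first of them, chr18:90771345-90772281, had 18755 RAD23B and 14414 IgG reads in replicate 1 and 7145 and 5445 in replicate 2, with folds of 1.24 and 1.31. All 5 lay more than 5 kb from any listed locus, and their folds stood between 1.21 and 1.25 in replicate 1 and between 1.28 and 1.35 in replicate 2. Ranked by reads alone, the strongest regions were thus among the weakest by fold.

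By fold, the shared regions ranked highest had few IgG reads. At chr3:3666704-3667208 there were 183 RAD23B and 16 IgG reads in replicate 1 and 109 and 8 in replicate 2, with counting intervals of 6.54 to 19.5 and 6.68 to 32.4 for the fold. At chr9:38231432-38231781, 6.09 kb from the start of the olfactory receptor gene Olfr901, there were 73 RAD23B and 6 IgG reads in replicate 1 and 46 and 3 in replicate 2, and the interval in replicate 2 reached from 4.93 to 77.1. The region with the most reads among the 5, chr1:53806615-53807308, 34.8 kb from the start of the kinase gene Stk17b, had 426 RAD23B and 39 IgG reads in replicate 1 and 215 and 20 in replicate 2, with folds of 10.2 (7.50 to 14.9) and 10.3 (6.79 to 18). None of the 5 lay at a listed start or in a listed locus. Their order rests on IgG counts of 39 or fewer in replicate 1 and 20 or fewer in replicate 2.

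Paired regions of the replicates matched closely in position. For the 38822 shared regions, each taken with the replicate 2 region it overlapped most, the middles lay a median of 20 bp apart, and 87.3% lay within 100 bp. The replicate 1 region was the wider of the pair in 96.9% (median 598 against 484 bp). Folds of a pair were within 1.5-fold of each other in 95.8%, and the replicate 2 fold was the higher in 69.1%. Scaled to library size, the medians over the pairs were 2.61 RAD23B and 1.35 IgG reads per kb and M in replicate 1 and 2.70 and 1.28 in replicate 2. A fold of at least 4 was reached in both lists by 1523 pairs and in at least 1 list by 3246. IgG density was the most alike between replicates (Spearman 0.880), ahead of fold (0.834), width (0.825) and RAD23B density (0.803), over pairs that share their position. RAD23B density had the narrower range, being held above the listing floor. Over all regions its 95th percentile was 1.98 and 1.79 times its 5th, against 2.89 and 3.18 for IgG density. The order of these correlations therefore does not tell which signal was the more reproducible.

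Replicate 1 regions without a partner were narrower and held fewer reads. In replicate 1, shared regions had a median of 182 RAD23B and 84 IgG reads and 20946 unshared ones had 86 and 45. In replicate 2, shared regions had 80 RAD23B and 37 IgG reads and the 1732 unshared ones 53 and 31. The peak height of unshared replicate 1 regions, a median of 0.622 RPM, was below the lowest peak listed in replicate 2, 0.640. Among replicate 1 regions at or above that lowest peak, 80.1% were shared.

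RAD23B regions lay both at and away from genes, and the signal at gene starts differed from that elsewhere. Regions were placed as within 1 kb of a listed gene start, elsewhere in a listed locus, within 5 kb of a locus, or farther away. Of the replicate 1 regions 23.4%, 40.7%, 8.98% and 26.9% fell in these classes, and of the replicate 2 regions 27.6%, 39.4%, 8.61% and 24.4%. Among shared regions of replicate 1 the part at starts was 28.2%, against 14.6% of the unshared ones, and in replicate 2 it was 28.2% and 12.01%. Some listed loci span many merged genes, so a start inside such a locus is not seen, and with only loci that hold 1 gene the part of shared regions at starts was 19.9%.

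Regions at starts were wider and held more RAD23B reads, yet had the lowest folds. In replicate 1 a start region held a median of 203 RAD23B and 108 IgG reads over 665 bp, and a region farther than 5 kb from any locus held 116 and 54 over 469 bp. In replicate 2 start regions had 102 RAD23B and 54 IgG reads over 554 bp, and those farthest from loci 70 and 29 over 445 bp. The start regions were thus higher in both libraries in both replicates. Per kb and M reads, RAD23B stood at 2.63 at starts and 2.33 far from loci in replicate 1 and at 2.80 and 2.65 in replicate 2, and IgG stood at 1.52 and 1.18 in replicate 1 and at 1.52 and 1.12 in replicate 2.

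The fold ran the other way. Median folds at starts, elsewhere in loci, within 5 kb and farther away were 1.77, 1.88, 1.94 and 2.02 in replicate 1 and 1.87, 2.14, 2.23 and 2.40 in replicate 2. Among start regions 0.693% in replicate 1 and 1.27% in replicate 2 reached a fold of 4, and among those farther than 5 kb from a locus 6.82% and 13.1% did. The difference RAD23B minus IgG, per kb and M reads, was nearer to level across the classes, at 1.16, 1.12, 1.15 and 1.19 in replicate 1 and 1.34, 1.44, 1.48 and 1.56 in replicate 2. Whether starts rank above or below distant regions therefore depended on the measure: above by RAD23B reads, below by fold and, by less, below by the difference. Regions more than 100 kb from any locus, 1860 and 1068 in number, had median folds of 2.13 and 2.87.

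**Figure D2:**
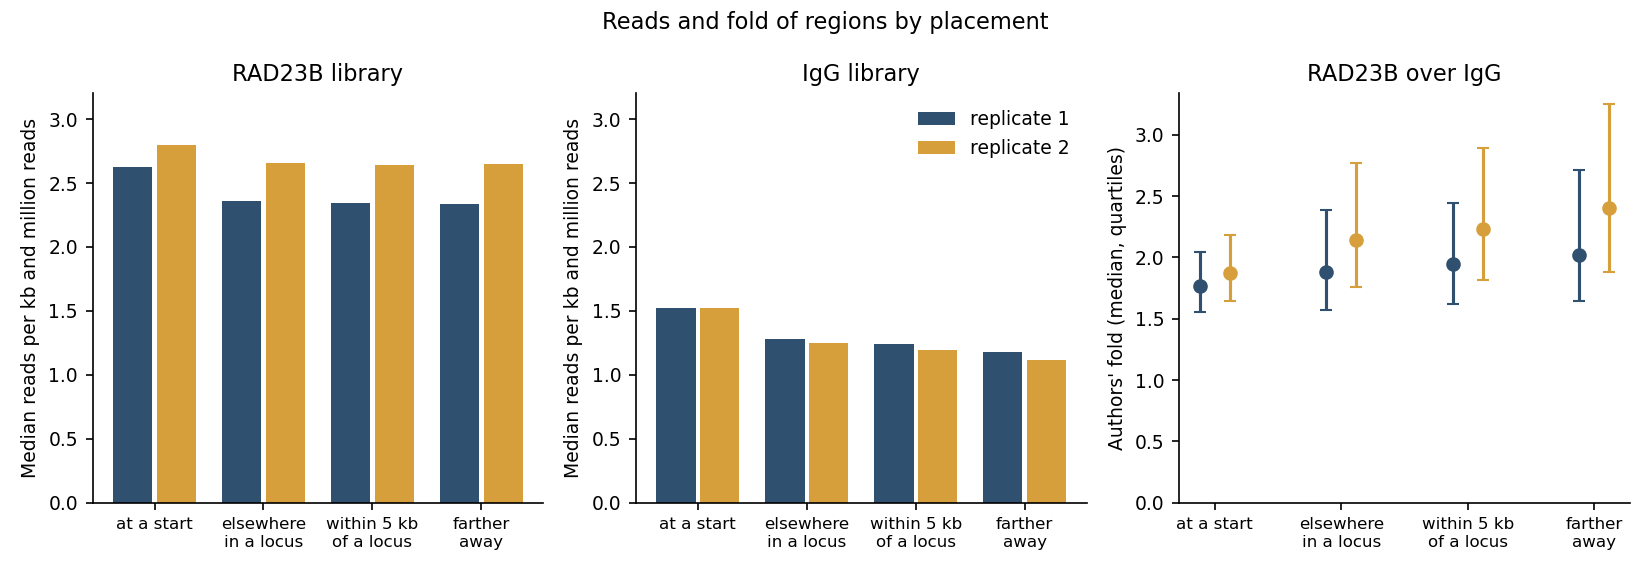
Median RAD23B (left) and IgG (middle) reads per kb of region and M library reads, and the authors' fold (right, points at the median, bars from the lower to the upper quartile), for all listed regions of each replicate by placement. Starts have the highest bars in both libraries and the lowest median fold, 1.77 and 1.87.

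Around protein-coding starts the regions were centred on the start itself. Of the shared regions, 6629 replicate 1 and 7068 replicate 2 middles lay within 1 kb of the start of a protein-coding gene with listed coordinates of its own. Their median position was 29 and 13 bp downstream of the start, and 57.0% and 53.8% lay downstream. The fullest bins of 200 bp were those just downstream of the start, with 2362 and 2274 regions, and those just upstream held 1942 and 2233. Between 1 and 3 kb, 888 middles lay upstream and 1032 downstream in replicate 1, and 943 and 1113 in replicate 2.

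**Figure D3:**
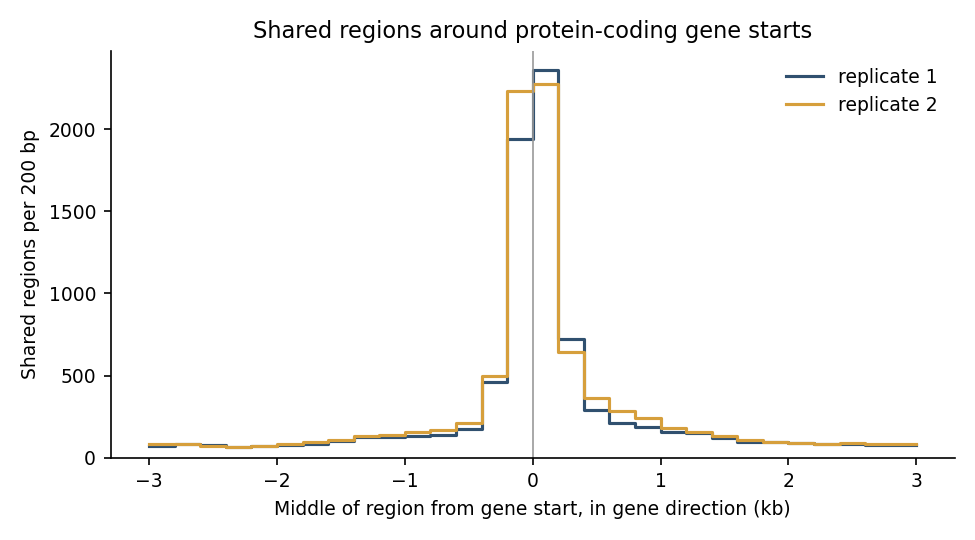
Number of shared RAD23B regions per 200 bp by the distance of their middle from the nearest start of a protein-coding gene, negative values being upstream, for replicate 1 and replicate 2 coordinates. Counts peak at 2362 and 2274 in the bin just downstream of the start.

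Of 23518 genes with listed coordinates of their own, 7387 (31.4%) had a shared RAD23B region within 1 kb of the start. The share was 43.7% among 15192 protein-coding genes, 33.5% among 1013 lincRNA genes, 36.5% among 222 antisense genes, 9.65% among 705 miRNA genes and 3.45% among 3619 pseudogenes. Among protein-coding genes it was 2.63% for those listed at 0 RPKM, 16.1% up to 0.1 RPKM, 41.2% up to 1, 66.9% up to 10, 80.4% up to 100 and 82.7% above. The fold of these start regions did not follow expression: over the 6 expression classes its median lay between 1.68 and 1.86 in replicate 1 and between 1.85 and 2.04 in replicate 2. RAD23B and IgG density both did. That is, replicate 1 medians above 100 RPKM were 3.09 RAD23B and 1.68 IgG reads per kb and M, against 2.59 and 1.42 at 0 RPKM. The part of IgG in the count of occupied starts was not tested.

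Gene starts at the top by fold were those of Phc1, Ap1s1, Anxa11, Uba2 and S100a10. At Phc1, a subunit of Polycomb repressive complex 1 (chr6:122290279-122291595), there were 813 RAD23B and 123 IgG reads in replicate 1 and 410 and 65 in replicate 2, with folds of 6.26 (5.21 to 7.69) and 6.23 (4.85 to 8.33). At Ap1s1, a subunit of the clathrin adaptor AP-1 (chr5:137521230-137522673), there were 1346 RAD23B and 241 IgG reads in replicate 1 and 581 and 85 in replicate 2, with folds of 5.31 (4.64 to 6.14) and 6.77 (5.44 to 8.69). At Uba2, a subunit of the SUMO-activating enzyme (chr7:34954312-34955023), there were 582 RAD23B and 89 IgG reads in replicate 1 and 240 and 41 in replicate 2, with folds of 6.18 (4.98 to 7.89) and 5.74 (4.19 to 8.37). Anxa11, an annexin gene, and S100a10, which encodes a binding partner of annexin A2, had their regions 0.680 and 0.682 kb from the listed start, with folds of 5.84 and 6.10 and of 5.20 and 6.20. These 5 genes had 40.4 to 386 RPKM in the JM8.N4 library, Uba2 the most. Their IgG counts, 55 to 241 in replicate 1, were above those of the 5 regions highest by fold anywhere, so their intervals were narrower.

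At Pou5f1, Nanog and Esrrb, genes of core stem cell factors, the strongest region had its middle more than 1 kb from the listed start. It was picked from all shared regions in or within 20 kb of the gene. At Pou5f1, RAD23B and IgG reads over the start (chr17:35642594-35643304) numbered 312 and 145 in replicate 1 and 145 and 64 in replicate 2. The region next to it upstream (chr17:35640617-35642553), its near edge 428 bp and its middle at -1396 bp from the start in gene direction, had 1645 RAD23B and 313 IgG reads in replicate 1. Of the replicate 2 regions that overlap it, the one with the longest overlap (chr17:35641422-35642508) held 336 and 78, with a fold of 4.27 (3.36 to 5.59). At Nanog the start region had 508 RAD23B and 142 IgG reads in replicate 1 and 262 and 67 in replicate 2. Its folds were 3.39 (2.83 to 4.14) and 3.87 (2.98 to 5.20), and its middle lay at -90 bp from the start. The region picked as strongest, upstream with its middle at -4648 bp, had 877 RAD23B and 201 IgG reads in replicate 1. In replicate 2 it had 402 and 91. Its folds were 4.145 (3.57 to 4.88) and 4.38 (3.51 to 5.61), so the intervals of the Nanog regions overlap in both replicates. Esrrb, a nuclear receptor gene, had no shared region within 1 kb of its listed start, and its strongest lay 140820 bp into its 161 kb locus, with 991 RAD23B and 168 IgG reads in replicate 1 and 492 and 70 in replicate 2. Sox2, the gene of the partner of the POU factor, lies in a listed locus of 578 kb that merges 7 genes, so its own start could not be placed. The strongest region in or near that locus (chr3:34381018-34381471) had 96 RAD23B and 27 IgG reads in replicate 1 and 52 and 6 in replicate 2, with folds of 3.31 (2.19 to 5.41) and 7.57 (3.73 to 24.7). Klf4, a zinc finger factor gene, had a start region of 228 RAD23B and 116 IgG reads in replicate 1 and 68 and 39 in replicate 2. In replicate 2 its fold was 1.73, with a counting interval of 1.16 to 2.66, and its fold in replicate 1 was 1.87. The strongest region near Klf4, 17.1 kb from it, had folds of 1.87 and 2.48.

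Among 19 pluripotency genes that had coordinates of their own, 14 had a region at the start (73.7%), against 31.4% of all genes with coordinates of their own and 80.4% of protein-coding genes between 10 and 100 RPKM. The median expression of the list was 78.7 RPKM, so its share was not above that of genes expressed alike. Its median folds were 2.69 and 2.82. The 3 with the highest mean fold were Tdgf1, Pou5f1 and Dppa5a. Tdgf1, which encodes the Nodal co-receptor Cripto, had 1469 RAD23B and 315 IgG reads in replicate 1 and 535 and 102 in replicate 2, with folds of 4.44 and 5.21. Dppa5a, an RNA-binding protein gene of stem cells, had 582 RAD23B and 143 IgG reads in replicate 1 and 284 and 74 in replicate 2, with folds of 3.86 and 3.8. Dppa3, Dppa4, Esrrb, Nr0b1 and Nr5a2 had none, although they had 21.0 to 162 RPKM. For comparison, the median fold over all shared start regions was 1.80 in replicate 1 and 1.88 in replicate 2. The measures are not quite alike, as that median counts every region and the list takes 1 region per gene. For Pou5f1 this is the upstream region and not the weaker one over the start.

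The genes of RAD23B itself and of its partners were unlike each other. Rad23b had 2 shared regions at its start. The upstream one (chr4:55362299-55363234) had 327 RAD23B and 121 IgG reads in replicate 1 and 177 and 57 in replicate 2, with folds of 2.56 (2.09 to 3.2) and 3.07 (2.29 to 4.26). The downstream one (chr4:55363259-55363733) had 124 RAD23B and 81 IgG reads in replicate 1 and 47 and 28 in replicate 2, and its intervals reached down to 1.09 and 1.03. The region at Xpc (chr6:91465510-91466270), the DNA damage sensor, also overlaps the neighbouring gene Lsm3 and had 287 RAD23B and 148 IgG reads in replicate 1 and 135 and 62 in replicate 2, with folds of 1.84 (1.51 to 2.27) and 2.16 (1.60 to 2.99). Cetn2, the centrin gene on the X chromosome, had no shared region in or within 20 kb of it. Of the 6 measurable genes of the XPC, dyskerin and ABCF1 coactivators, Rad23b, Gar1, Xpc and Naf1 had a region at the start (66.7%). Cetn2 and Nop10 had none. The share was 31.4% over all genes with coordinates of their own. It was 80.4% for protein-coding genes between 10 and 100 RPKM, and the median of this list was 50.3 RPKM. On the X chromosome, where Cetn2 lies, 17.7% of protein-coding genes with at least 1 RPKM had a shared region at the start.

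Other gene lists ranged from nearly all to almost none, beside 31.4% of all genes with coordinates of their own, 80.4% of protein-coding genes between 10 and 100 RPKM and 82.7% of those above. A region was at the start of 12 of 13 LIF, STAT3 and signalling genes, 11 of 12 glycolytic enzyme genes, 14 of 16 Polycomb genes, 25 of 30 cytosolic ribosomal protein genes and 10 of 13 nucleotide excision repair genes. It was at 13 of 19 general transcription factor and RNA polymerase genes, 11 of 18 Mediator and cohesin genes, 10 of 16 Hox genes and 9 of 23 germ layer factor genes, and at 1 of 28 terminal tissue genes, Actn2. Of 1219 olfactory receptor genes 2 had one (Olfr95 and Olfr94), as did 2 of 385 vomeronasal receptor genes (Vmn2r12 and Vmn1r90). The lists with a median of at least 14.7 RPKM had shares between 61.1% and 92.3%, and among them the share did not follow expression: the signalling list had the highest share at 14.7 RPKM, and ribosomal protein genes had 83.3% at 1474 RPKM. The lists with a median under 1 RPKM had shares between 0.164% and 62.5%, the highest being that of the Hox genes at 0.0440 RPKM. Germ layer factors had 39.1% at a median of 0.281 RPKM, and terminal tissue genes 3.57% at 0.0337. Over all protein-coding genes the share was 2.63% at 0 RPKM, 16.1% up to 0.1 and 41.2% up to 1. The Hox share was above that of genes expressed alike and the germ layer share near it. The shares of terminal tissue and receptor genes were below it. Shares of the expressed lists thus lay on both sides of those of all genes expressed alike.

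Folds within these lists spread widely. Among ribosomal protein genes, Rpl22 had 744 RAD23B and 227 IgG reads in replicate 1 and 292 and 82 in replicate 2 (folds 3.12 and 3.53), while Rpl10a had 496 and 378 in replicate 1 and 199 and 153 in replicate 2 (folds 1.25 and 1.3). The list's median folds were 1.64 and 1.68, below those of glycolytic genes, 2.08 and 2.12. Pgk1, Pkm2 and Eno1 led the glycolytic genes, with folds of 2.71 and 3.39, 2.48 and 2.33, and 2.42 and 2.27, and Ldha, lactate dehydrogenase A, had no region. Among excision repair genes the first by fold was Ddb1, a subunit of the UV damage-binding factor, with 418 RAD23B and 195 IgG reads in replicate 1 and 207 and 93 in replicate 2 (folds 2.04 and 2.21), followed by Rpa3 and Rpa2 of the single-strand binding protein RPA. Ercc8, Gtf2h2 and Gtf2h4 had none. The next after Phc1 among Polycomb genes were Bmi1 (folds 3.79 and 3.54) and Cbx8 (2.66 and 3.12), and Pcgf3 and Phc2 had none.

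In 5 more lists (Mediator and cohesin, general transcription factors, signalling, germ layer factors and Hox) the first 3 genes had folds between 1.78 and 3.90. Med14, the Mediator scaffold subunit, had folds of 3.31 and 3.90, Smc3, a cohesin subunit, 2.40 and 3.0 and Med16 2.18 and 2.39, and Med8, Med17, Med22, Med24, Med25, Med28 and Stag2 had no region. Polr2l and Taf8, a small RNA polymerase II subunit and a TFIID subunit, had 3.08 and 2.76 and 2.79 and 2.68, Gtf2e2 had 2.08 and 1.80, and Polr2e, Polr2f, Polr2g, Taf1, Taf7 and Taf12 had none. In the signalling list Sos1, Id2 and Smad4 came first, with folds of 2.59 and 2.36, 1.89 and 2.86, and 2.10 and 2.39, and only Il6st, which encodes the gp130 co-receptor of LIF, had none. Each of these lists thus held both genes at 2-fold or more and genes without a region. The germ layer factors Gsc, Hand1 and Pax3 had folds of 2.75 and 2.70, 1.78 and 3.22, and 2.28 and 2.32. Among Hox genes Hoxd10, Hoxb9 and Hoxc13 had 2.47 and 3.0, 2.37 and 2.70, and 2.16 and 2.46, on 165, 175 and 469 RAD23B and 63, 70 and 207 IgG reads in replicate 1.

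**Figure D4:**
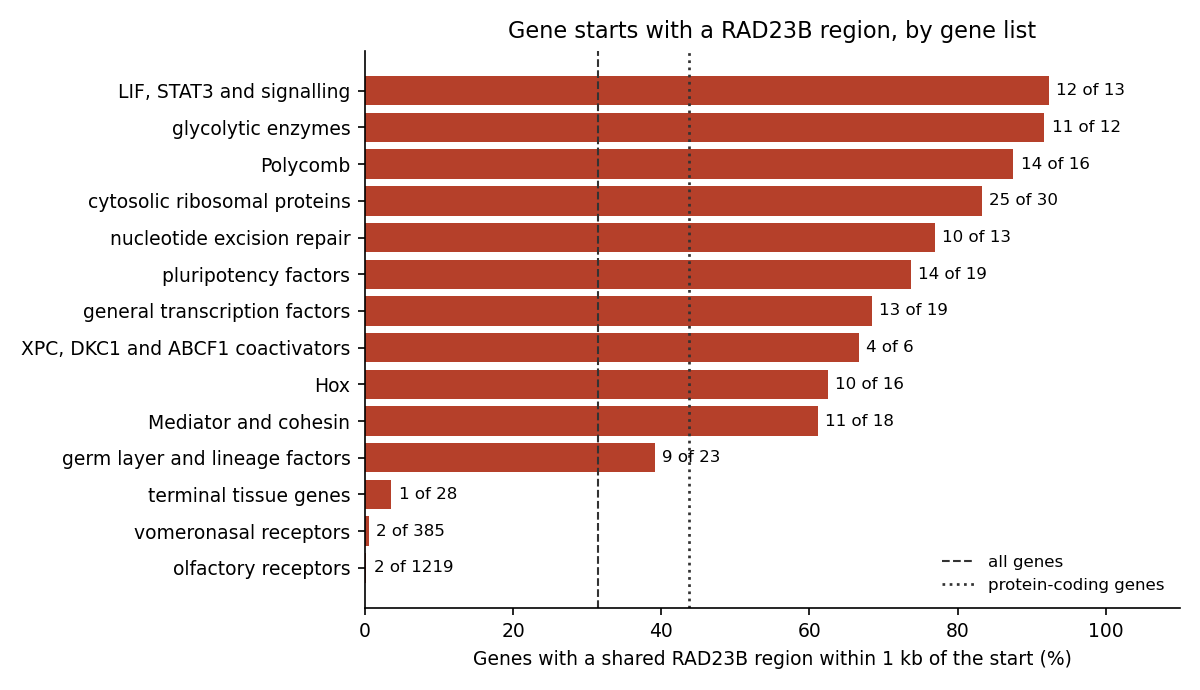
Percent of genes with a shared RAD23B region within 1 kb of the start, for the genes of each list that had coordinates of their own, with the counts beside the bars. The dashed line is all 23518 genes (31.4%) and the dotted line protein-coding genes (43.7%). Bars run between 0.164% for olfactory receptors and 92.3% for LIF, STAT3 and signalling genes.

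Regions were unevenly spread over chromosomes, and the X chromosome stood apart from the autosomes. It carried 748 regions in replicate 1 and 377 in replicate 2, 4.49 and 2.26 per Mb, against 23.9 and 17.0 per Mb over the autosomes. Per listed protein-coding gene there were 0.825 and 0.416 regions on X and 2.82 and 2.0 on autosomes. Among protein-coding genes with at least 1 RPKM in the JM8.N4 library, a shared region was at the start of 48 of 271 on X (17.7%) and of 5403 of 6968 on autosomes (77.5%). In the replicate 1 list alone these values were 37.3% and 86.2%. The X-linked genes named above without a region, Nr0b1, Cetn2, Stag2 and Taf1, were joined by the ribosomal protein genes Rpl10 and Rps4x, and the X-linked Med14 and Pgk1 led their lists by fold.

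Regions that were listed on X had the higher folds and the lower IgG levels. Median folds were 2.56 and 3.07 on X, against 1.87 and 2.09 on autosomes, and 21.1% and 32.9% of X regions reached a fold of 4. IgG reads per kb and M were 0.896 and 0.811 on X, against 1.31 and 1.29 on autosomes, and RAD23B reads were 2.31 and 2.61 on X, against 2.40 and 2.69. Listing needed the same peak on every chromosome, 61 extended RAD23B reads in replicate 1 and 40 in replicate 2. Among listed regions the RAD23B level thus stays above a floor, and a lower IgG level means a higher fold. The part of this floor in the X folds and in the X share of starts was not tested. At starts the X fold was 2.50 and 2.66, against 1.76 and 1.87 on autosomes. Farther than 5 kb from any locus it was 2.03, against 2.02, in replicate 1 (285 X regions), and 2.95, against 2.40, in replicate 2 (137 X regions). Elsewhere in loci the X fold was 2.68, against 1.87, in replicate 1 and 3.04, against 2.14, in replicate 2. Within 5 kb of a locus it was 3.31, against 1.94, in replicate 1 (73 X regions) and 4.80, against 2.22, in replicate 2 (46 X regions). The excess of the X fold was thus seen in every class of both replicates except the most distant class of replicate 1. The Y chromosome held 3 and 6 regions.

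Chromosomes 8, 11 and 15, picked after their values were seen, had the most regions for their length. They carried 34.4, 41.2 and 36.6 regions per Mb in replicate 1 and 27.8, 30.5 and 29.5 in replicate 2, and the other 16 autosomes had between 16.4 and 30.7 and between 11.05 and 22.2. Chromosomes 8 and 15 also had the highest IgG levels, 1.53 and 1.5 reads per kb and M in replicate 1 and 1.51 and 1.46 in replicate 2, with 1.22 to 1.34 and 1.18 to 1.32 on the 16 others. At starts alone their IgG levels were 1.91 and 1.86 in replicate 1 and 1.87 and 1.79 in replicate 2, above the 1.45 to 1.52 and 1.44 to 1.52 of the 16. Their median folds, 1.65 and 1.70 in replicate 1 and 1.85 and 1.90 in replicate 2, were below the 1.86 to 1.97 and 2.05 to 2.26 of the 16. Chromosome 11 lay between, with IgG levels of 1.38 and 1.35 and median folds of 1.82 and 2.01. The part that the IgG level of a chromosome has in its number of listed regions was not tested. Without chromosomes 8, 11, 15, X and Y the mean over replicates of the median fold at starts minus that far from loci was -0.46, and -0.39 with them.

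**Figure D5:**
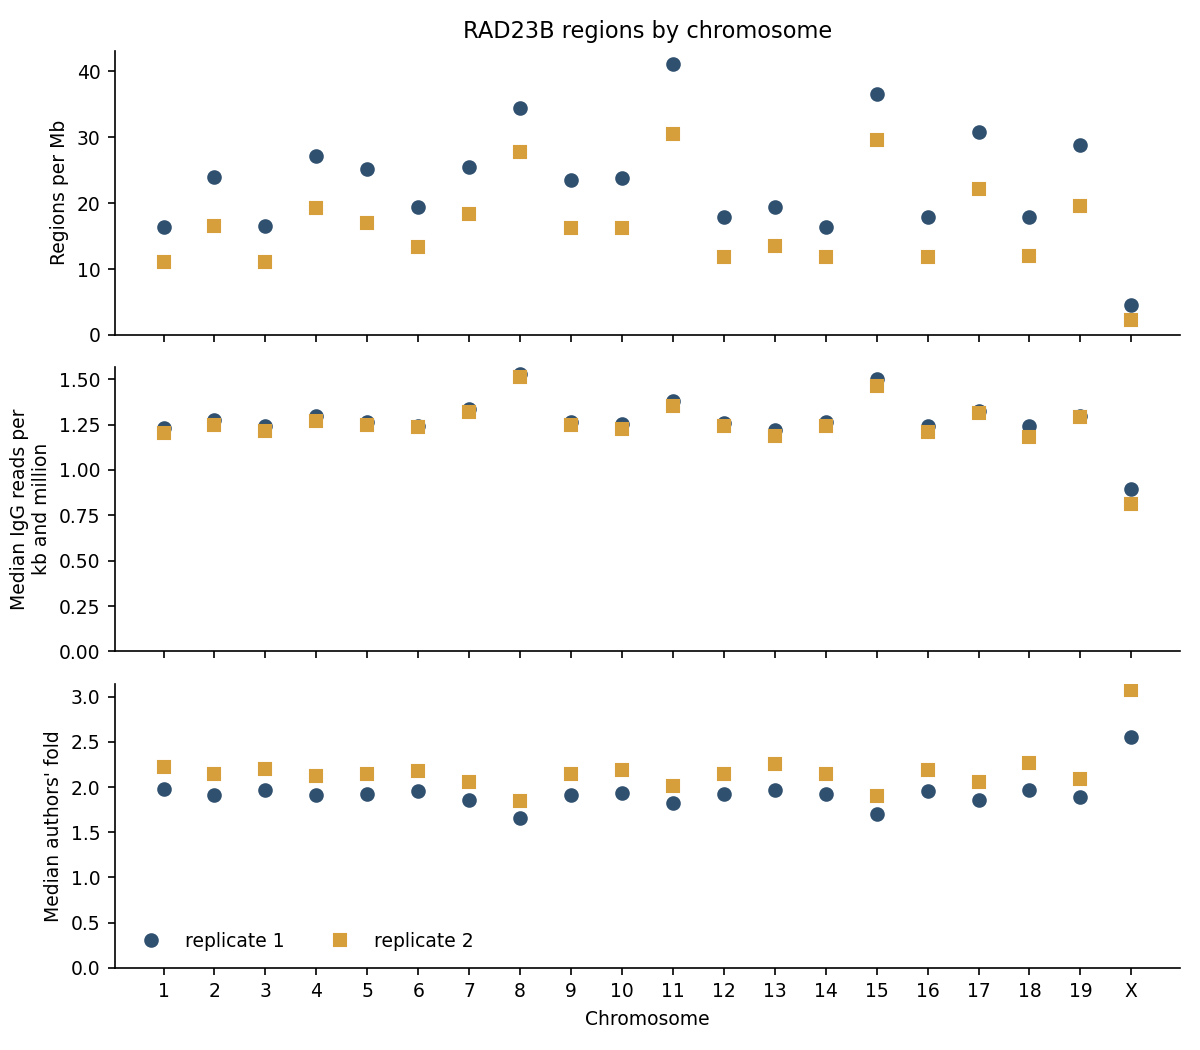
Regions per Mb of chromosome (top, length taken to the last listed position), median IgG reads per kb of region and M library reads (middle) and median authors' fold (bottom) by chromosome, for replicate 1 (circles) and replicate 2 (squares), without Y. X has the fewest regions per Mb, the lowest IgG level and the highest fold, and chromosomes 8 and 15 have the highest IgG levels and the lowest folds.

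Many regions stood close together. Shared regions no more than 10 kb apart formed 21671 groups, of which 14247 were single regions and 212 held 10 or more. Groups of at least 2 held 63.3% of all shared regions. The group with the most regions, 36 over 106 kb on chromosome 15 (chr15:102740428-102846553), lay over the Hoxc cluster, which was hardly expressed (0.508 RPKM at most among its genes with coordinates of their own). Its regions had 7071 RAD23B and 3634 IgG reads in replicate 1 and 3274 and 1559 in replicate 2, with median folds of 1.78 and 2.06. On chromosome 8, a group of 29 regions over 116 kb (chr8:73108980-73224978) covered the elongation factor gene Ell and the genes Isyna1, Lsm4, Ssbp4 and Pgpep1, with 15236 RAD23B and 8168 IgG reads in replicate 1 and 6286 and 3248 in replicate 2. The other 3 of the 5 fullest groups lay on chromosome 15, and 1 of them (chr15:79709399-79784374, over Apobec3 and Cbx7, 28 regions) reached the highest folds of the 5, 6.57 and 6.38. All 5 fullest groups were on chromosomes 8 and 15, where region density and IgG level were both high. None lay on chromosome 11, which had the most regions per Mb in both replicates.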

How the data were processed

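Per the labels' protocols, crosslinked chromatin was sonicated and libraries were sequenced after size selection. Per the submitters' processing notes Partek and the mm9 build were used, and how regions were called was not stated there. Per the file headers each list gives the region width in bp, counts of RAD23B and IgG reads in the region, the maximum count of extended reads, that maximum as RPM, the authors' p-value (none above 0.05), their scaled fold, and a fraction of the region headed as overlap with the other library. Expression is the deposited RPKM of the wild-type library, made with TopHat2 2.0.6 and Cufflinks 2.0.2 per the submitters' processing notes, in which exactly 1 was read as 0. Gene loci are those listed with the expression comparison of Rad23b-null and wild-type cells, after 72 unnamed lines were left out. That left 36586 genes, of which 23518 had coordinates of their own.

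Computed here were overlaps, distances, medians per class, reads per kb, and reads per kb and M (1000000) reads with the library sizes given above. Counting intervals are exact binomial (Clopper-Pearson) intervals at 95%, scaled by the same library sizes. No test was made. The overlap and distance routines were tested on simulated data. Regions were named by rule: the first 5 shared regions by mean rank over both lists for RAD23B reads per kb, width, IgG reads per kb and fold, the first 5 protein-coding starts by fold, the 2 nearest the medians, those at 8 named genes, the 5 fullest groups, and in each gene list the 3 highest genes and those without a region. The members, gene lists and rules were chosen with earlier results of these data known. Alternatives changed the start window, overlap, thresholds, loci and replicates used. The software was Python 3.11.15 with pandas 2.3.3, numpy 2.4.6, matplotlib 3.10.9 and scipy 1.17.1. Xpc-null regions were only counted, and the RNA libraries of mutant cells were not used here.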

Additional observations from a re-analysis of the deposited data

How the results depend on the processing

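No paired test was possible because regions were listed for their excess of RAD23B over IgG reads, and there were only 2 pairs of libraries. No result comes from a test. The pairing was used in the fold, which sets RAD23B against the IgG library of its own replicate. The mean over replicates of the median fold, 1.98, was 2.24 with an authors' p-value of at most 0.001, and 1.88 to 2.09 when each replicate was left out. The median width, 489.5 bp, was 538.5 bp at that p-value. Shared regions were 64.95% of replicate 1, 60.96% when at least 50% of both regions had to be covered, 63.32% with the middle inside a replicate 2 region, 66.97% with a fold of at least 2 in both lists and 80.13% at peak heights that replicate 2 could list. The part of shared regions at starts, 28.18%, was 24.84% within 0.5 kb, 41.95% within 5 kb, 19.91% with only loci of 1 gene, 16.29% with a fold of at least 2 in both lists, and 23.41% and 27.59% over all regions of replicate 1 and replicate 2. Genes with a region at the start, 31.41%, were 29.81% within 0.5 kb, 37.97% within 5 kb, 34.20% with genes that share coordinates, and 31.73% to 36.75% with 1 replicate left out. Starts minus distant regions, -0.39 in median fold, reversed to 0.22 when RAD23B reads per kb and M replaced the fold, and stood at -0.13 for RAD23B minus IgG reads. That RAD23B and IgG levels were both higher at starts is the arithmetic of this reversal, and no other cause was tested. The X excess, 0.84 in median fold, stayed between 0.68 and 1.00 under the alternatives tried, and the number of groups of regions stayed within 1.5-fold of 21671. With the unscaled read ratio, 6 of 33 named regions moved by more than the spread between replicates and none reversed. For a single region, leaving out a replicate gives only the other replicate's value. Depth limits weak regions at the listing limit and folds resting on few IgG reads.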

Other observations

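Each list also carries the authors' fraction of a region that overlaps the other library, whose computation is not given in the sources used here. Of its 2 columns, 1 is fixed at 1 in every region of both lists. The column that varies is headed IgG in replicate 1 and RAD23B in replicate 2, whose headings are those of replicate 1, so it is taken only as overlap with the other library of the list. The fraction was above 0 in 25743 replicate 1 regions (43.1%) and 16427 replicate 2 regions (38.8%). At starts it was above 0 in 69.8% and 63.7% of regions, and farther than 5 kb from any locus in 29.1% and 23.6%. Regions with some overlap were wider than those with none (668 against 431 bp in replicate 1, 596 against 417 bp in replicate 2) and had lower folds (1.66 against 2.10 and 1.75 against 2.40). In the weakest decile by fold 85.9% and 90.8% had some overlap, and in the strongest decile 15.4% and 6.0%. The 1053 and 856 regions that lay wholly within the overlap had median folds of 1.37 and 1.43 and held 338 RAD23B and 226 IgG reads per kb in replicate 1 and 204 and 139 in replicate 2.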
